A study of Homo sapiens with 6 samples.

Results

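The genes of glucose breakdown are described in neuroblastoma cells: 35 of the 35130 gene names in the files, chosen by name as those of glycolysis, the pentose phosphate pathway and the transport of glucose and lactate. All 35 were found, and all 35 passed the filter for testing, a mean no lower than 1 TPM across the 6 libraries. TPM is the share of a library's transcripts that a gene holds, scaled for transcript length. The cells were of the human line SK-N-BE(2), a neuroblastoma with amplified MYCN for which the labels give bone marrow as the tissue, and their RNA was sequenced. Cultures received NEN at 1 µM for 24 h (3 libraries) or DMSO, the solvent control, for as long (3 libraries), named biological replicates in the labels. NEN appears there as an abbreviation only; published neuroblastoma work uses it for niclosamide ethanolamine, a compound that uncouples mitochondria. All libraries come from 1 established line, so the comparison describes this line alone.

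Glycolysis splits glucose into pyruvate in the cytosol and yields ATP without oxygen. Lactate dehydrogenase turns pyruvate into lactate, which restores NAD+, and monocarboxylate transporters carry the lactate out of the cell. The pentose phosphate pathway branches off after the first step and supplies NADPH and ribose. Many steps are shared by isozymes, encoded by separate genes that differ in kinetics, regulation and tissue.

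The listed names of a library summed to between 929054 and 933500 TPM. TPM holds no read counts, so the depth is unknown and only the spread between libraries gives the precision. All 9 adrenergic neuroblastoma markers had a mean of at least 1 TPM, and CHGA, a granule protein, was the highest. These 9 summed to between 5975 and 6232 TPM in NEN libraries and between 4942 and 5817 TPM in DMSO libraries. None of 8 blood and marrow markers reached that mean, and CD3E and HBB were at 0 in every library. The blood and marrow markers summed to between 0.17 and 0.38 TPM in NEN libraries and between 0.55 and 2.35 TPM in DMSO libraries. The 5 stromal markers summed to between 25.1 and 29.2 TPM in NEN libraries and between 14.3 and 18.0 TPM in DMSO libraries, most of it PDGFRB. The 4 epithelial markers summed to between 2.82 and 6.10 TPM in NEN libraries and between 3.59 and 6.16 TPM in DMSO libraries, with KRT5 at 0 throughout. The part of these markers in the results was not tested. The libraries are of whole cultures, in which fewer cells with a transcript and less of it per cell cannot be told apart.

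The question was how these transcripts respond to NEN. Of the 35 glucose pathway genes, 12 rose in NEN-treated cells and 3 fell at an adjusted p of at most 0.05 in limma, and 20 did not pass. Over all 12574 genes tested, 13.5% rose and 16.5% fell, and 30.0% were called in all. Among the 35 genes the share that rose was 34.3%, and the share that fell was 8.57%. The 35 genes were chosen with earlier results of these data known, so this contrast is a description and not a test. The median fold change was 0.06 for the 35 genes and -0.03 for all genes tested. Each fold change is a difference of log2(TPM + 1) values, NEN less DMSO, given ± SE; the added 1 shrinks the changes of low genes. ALDOC and SLC2A3 were the 2 members called with a change of at least 1 on that scale, where 2.83% of all genes tested were; with 5 added in place of 1, SLC2A3 was at 0.75. The rises lay mainly in glucose uptake and glycolysis up to the triose phosphates, with 7 of 11 genes, and in the pentose phosphate pathway, with 3 of 6. The 7 became 3 without NEN replicate 2, NEN replicate 3 or DMSO replicate 3, and 4 without DMSO replicate 2. The count of 12 rises was 8, 6 and 6 without NEN replicates 1, 2 and 3, and 11, 7 and 6 without DMSO replicates 1, 2 and 3. In the same order the count of 3 falls was 2, 2 and 1 without NEN libraries and 6, 1 and 1 without DMSO libraries.

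**Figure D1:**
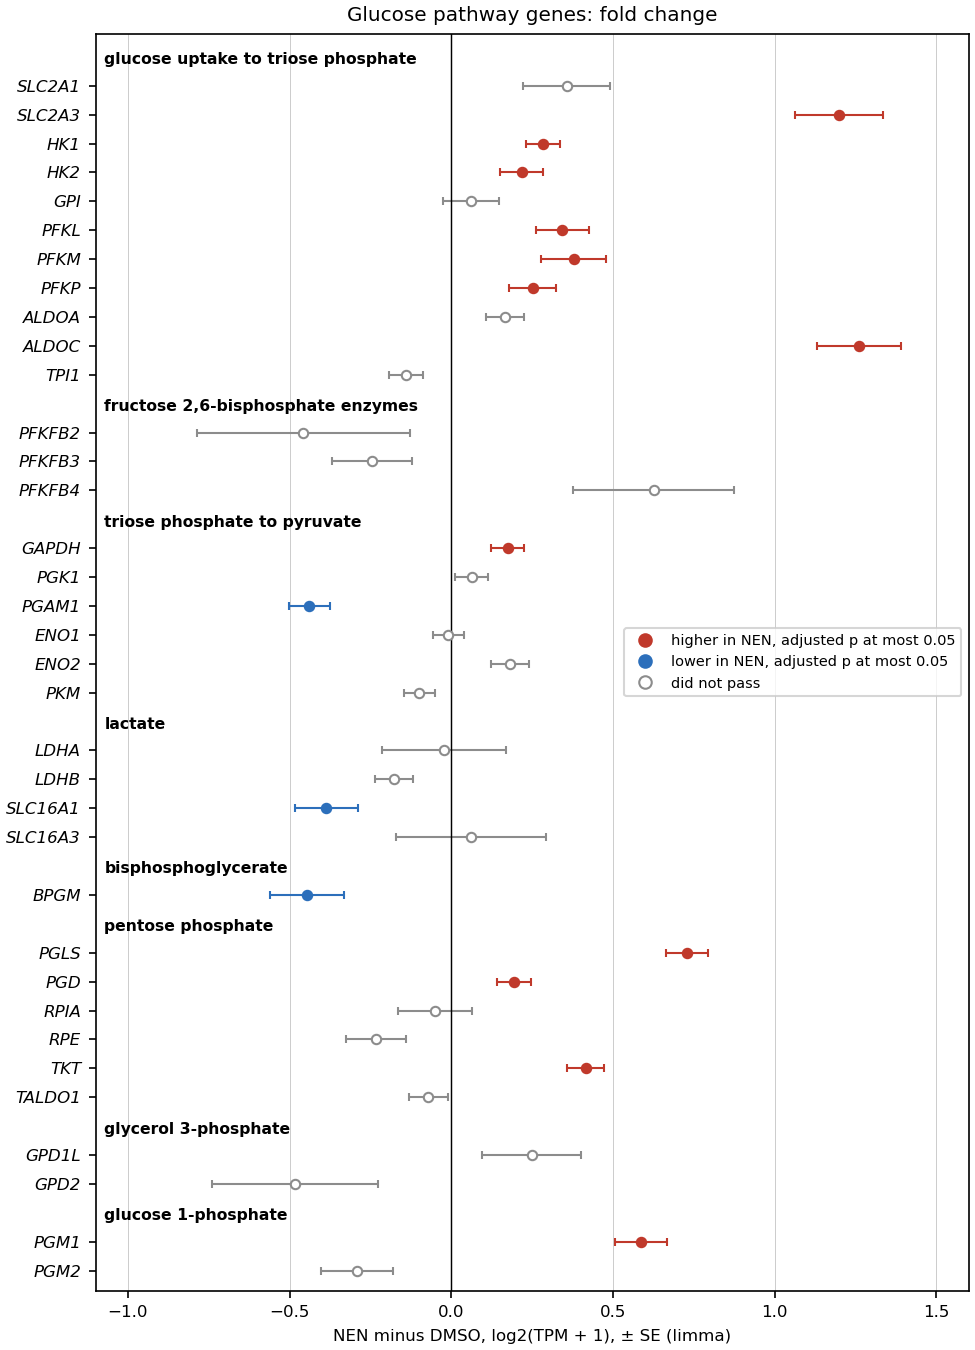
Fold change of each of the 35 genes, NEN less DMSO in log2(TPM + 1), with the SE from limma as bars. Filled points passed an adjusted p of 0.05, in red for the 12 rises and in blue for the 3 falls, and open points did not. ALDOC and SLC2A3 lie farthest to the right, at 1.26 and 1.20.

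As levels, the genes spanned more than 3 orders of magnitude on the per-length TPM scale. GAPDH was the highest, with 7215, 7011 and 7098 TPM in NEN libraries and 6636, 6106 and 6168 TPM in DMSO libraries. ENO1, PKM and TPI1 followed it in that order in both groups. At the lower end, SLC16A3, PFKFB2 and PFKFB4 had group means between 1.07 and 4.56 TPM. The 35 genes together held 1.70%, 1.67% and 1.65% of the listed TPM in NEN libraries and 1.62%, 1.54% and 1.58% in DMSO libraries. The groups did not overlap for 23 of the 35 genes, with NEN above DMSO for 15 and below it for 8, where the figures over all genes tested were 46.8% in all, 21.8% above and 25.0% below.

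**Figure D2:**
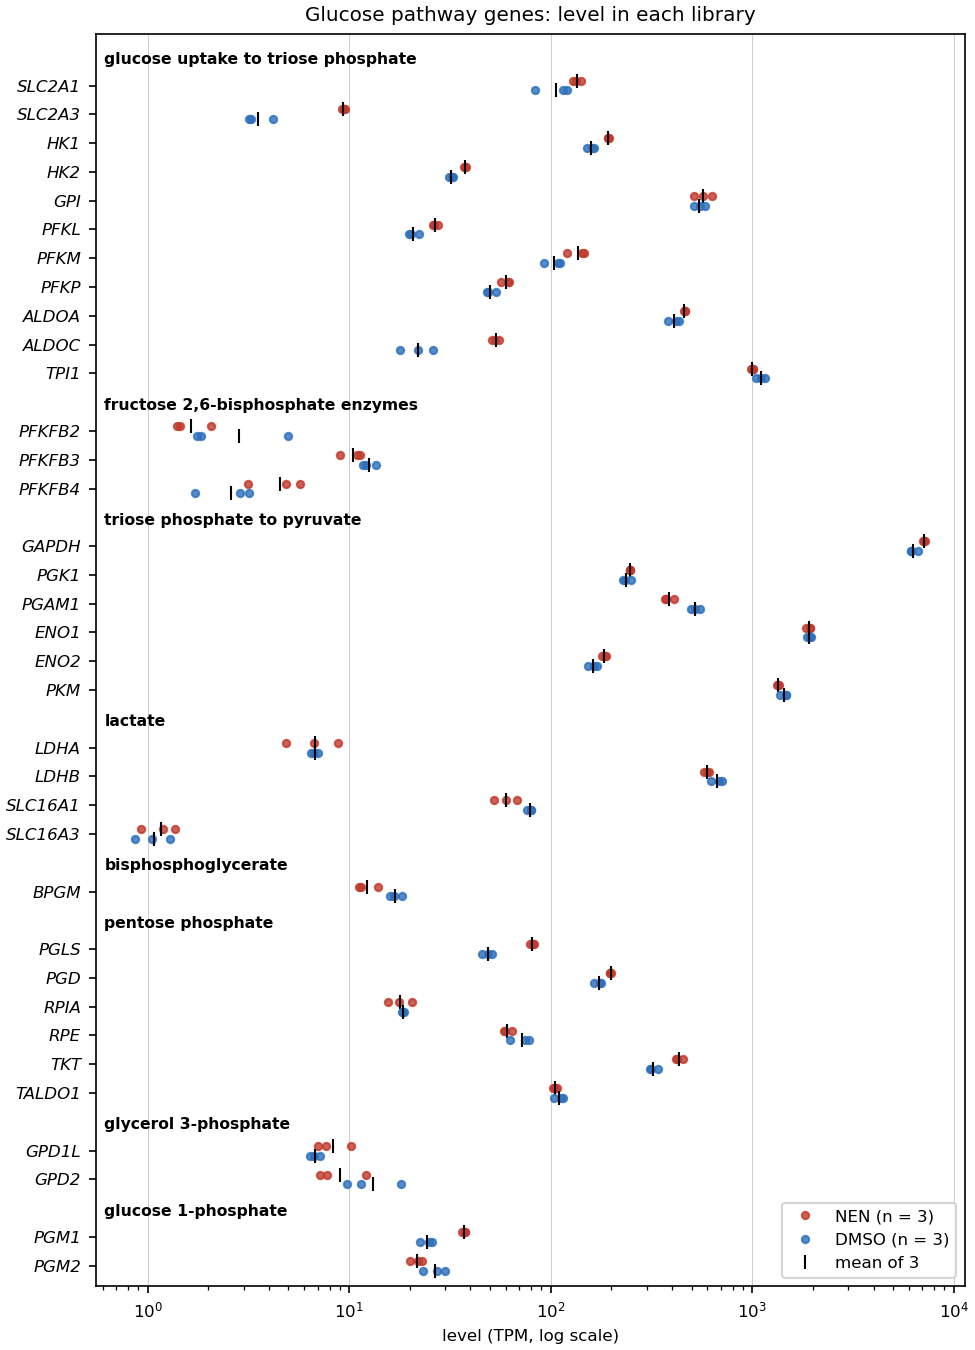
Level of each of the 35 genes in every library, in TPM on a log axis, with NEN libraries in red above DMSO libraries in blue and the mean of 3 as a black mark. Levels run from near 1 TPM for SLC16A3 to 7215 TPM for GAPDH, and LDHA lies near 7 TPM in both groups.

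Glucose enters neural cells mainly through the facilitative transporters GLUT1 and GLUT3. SLC2A3, which encodes the high-affinity neuronal transporter GLUT3, had 9.52, 9.17 and 9.43 TPM in NEN libraries and 3.27, 3.17 and 4.19 TPM in DMSO libraries. The groups lay far apart, and the rise was 1.20 ± 0.14 (adjusted p = 0.00126). SLC2A1, which encodes GLUT1, was the more abundant of the pair, with 142.1, 133.0 and 129.3 TPM in NEN libraries and 83.4, 120.5 and 115.2 TPM in DMSO libraries. DMSO replicate 1 was the lowest of the 6 libraries, and SLC2A1 did not pass the test (0.36 ± 0.13, adjusted p = 0.0860; 0.19 without that library). SLC2A3 made up 6.28%, 6.45% and 6.80% of the TPM of both transporters in NEN libraries and 3.77%, 2.56% and 3.51% in DMSO libraries. SLC2A3 has a near copy, SLC2A14, which holds 37.3% of the 31-base words of the longest SLC2A3 transcript. SLC2A14 itself averaged 0.33 TPM over the libraries, and how reads were divided between both names is not known, so the SLC2A3 value is uncertain to that extent.

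Hexokinase traps glucose in the cell as a phosphate ester, and both listed hexokinases rose. HK1, the form that predominates in brain, had 193.6, 195.0 and 192.1 TPM in NEN libraries and 160.7, 151.7 and 164.6 TPM in DMSO libraries (0.28 ± 0.05, adjusted p = 0.00712). HK2, the inducible form of many tumours, had 38.1, 37.5 and 37.0 TPM in NEN libraries and 32.9, 31.1 and 32.4 TPM in DMSO libraries (0.22 ± 0.07, adjusted p = 0.0454). The groups did not overlap for either gene, but the HK2 call ended whichever library was left out, at fold changes of 0.20 to 0.23. As a share of both, HK2 held 16.4%, 16.1% and 16.2% in NEN libraries and 17.0%, 17.0% and 16.4% in DMSO libraries, and these ranges overlap. GPI, the isomerase of the next step, had 572 ± 61 TPM in NEN libraries and 547 ± 34 TPM in DMSO libraries (SD, n = 3 each; 0.06 ± 0.09, adjusted p = 0.636).

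Phosphofructokinase commits the sugar to glycolysis, and its 3 subunit genes all rose. PFKM, the muscle form, was the most abundant, with 120.1, 142.3 and 145.8 TPM in NEN libraries and 111.4, 108.8 and 92.9 TPM in DMSO libraries (0.38 ± 0.10, adjusted p = 0.0276). PFKP, the platelet form, had 61.4, 61.8 and 56.5 TPM in NEN libraries and 53.4, 48.7 and 48.4 TPM in DMSO libraries (0.25 ± 0.07, adjusted p = 0.0363). PFKL, the liver form, had 26.1, 27.5 and 26.3 TPM in NEN libraries and 20.4, 22.2 and 19.9 TPM in DMSO libraries (0.34 ± 0.08, adjusted p = 0.0187). The groups were separate for each of the 3 genes. The mix of subunits overlapped between the groups, with PFKM at 57.8%, 61.4% and 63.8% of the 3 in NEN libraries and 60.2%, 60.6% and 57.6% in DMSO libraries. Each of the 3 calls was lost without NEN replicate 2, NEN replicate 3 or DMSO replicate 3, while the fold changes stayed between 0.23 and 0.47. The calls of PFKL (0.14) and PFKP (0.15) were also lost after correction for transcript length and GC content, those of PFKM (0.41) and PFKP (0.23) without DMSO replicate 2, and that of PFKP without NEN replicate 1 (0.23).

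The PFKFB enzymes make and break down fructose 2,6-bisphosphate, the strongest activator of phosphofructokinase, and 0 of the 3 genes passed in limma, where 1, PFKFB4, had an unadjusted p below 0.05. PFKFB4 had 4.87, 5.67 and 3.13 TPM in NEN libraries and 2.88, 3.17 and 1.72 TPM in DMSO libraries (0.63 ± 0.25, adjusted p = 0.0992). PFKFB3, whose product has the highest kinase activity of the family, had 11.3, 10.9 and 8.98 TPM in NEN libraries and 12.1, 13.6 and 11.7 TPM in DMSO libraries (-0.25 ± 0.12, adjusted p = 0.176); it was at -0.37 after length and GC correction (adjusted p = 0.0479) and at -0.15 without NEN replicate 3. PFKFB2 had 1.45, 2.05 and 1.40 TPM in NEN libraries and 1.75, 4.98 and 1.83 TPM in DMSO libraries (-0.46 ± 0.33, adjusted p = 0.334), and was at -0.09 without DMSO replicate 2, its highest library. PFKFB4 made up 27.6%, 30.4% and 23.2% of the 3 in NEN libraries, all above the 17.2%, 14.5% and 11.2% in DMSO libraries.

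Aldolase splits fructose 1,6-bisphosphate into triose phosphates. ALDOC, the brain form, had 51.4, 55.4 and 53.2 TPM in NEN libraries and 17.8, 22.0 and 25.9 TPM in DMSO libraries. Its rise of 1.26 ± 0.13 (adjusted p = 0.000924) was the largest of the 35 genes on this scale, and the groups lay far apart. SLC2A3 was above it with 0.1 added in place of 1 (1.39 against 1.295), after length and GC correction (1.29 against 1.24) and without DMSO replicate 1 (1.16 against 1.13). ALDOA, the ubiquitous form, had 461.6, 458.9 and 461.9 TPM in NEN libraries and 417.3, 381.2 and 434.5 TPM in DMSO libraries, and did not pass (0.17 ± 0.06, adjusted p = 0.0715). ALDOC therefore held 10.0%, 10.8% and 10.3% of aldolase TPM in NEN libraries, against 4.10%, 5.45% and 5.64% in DMSO libraries. TPI1, which interconverts the triose phosphates, had 1007, 1005 and 991 TPM in NEN libraries and 1161, 1049 and 1101 TPM in DMSO libraries (-0.14 ± 0.05, adjusted p = 0.0834).

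**Figure D3:**
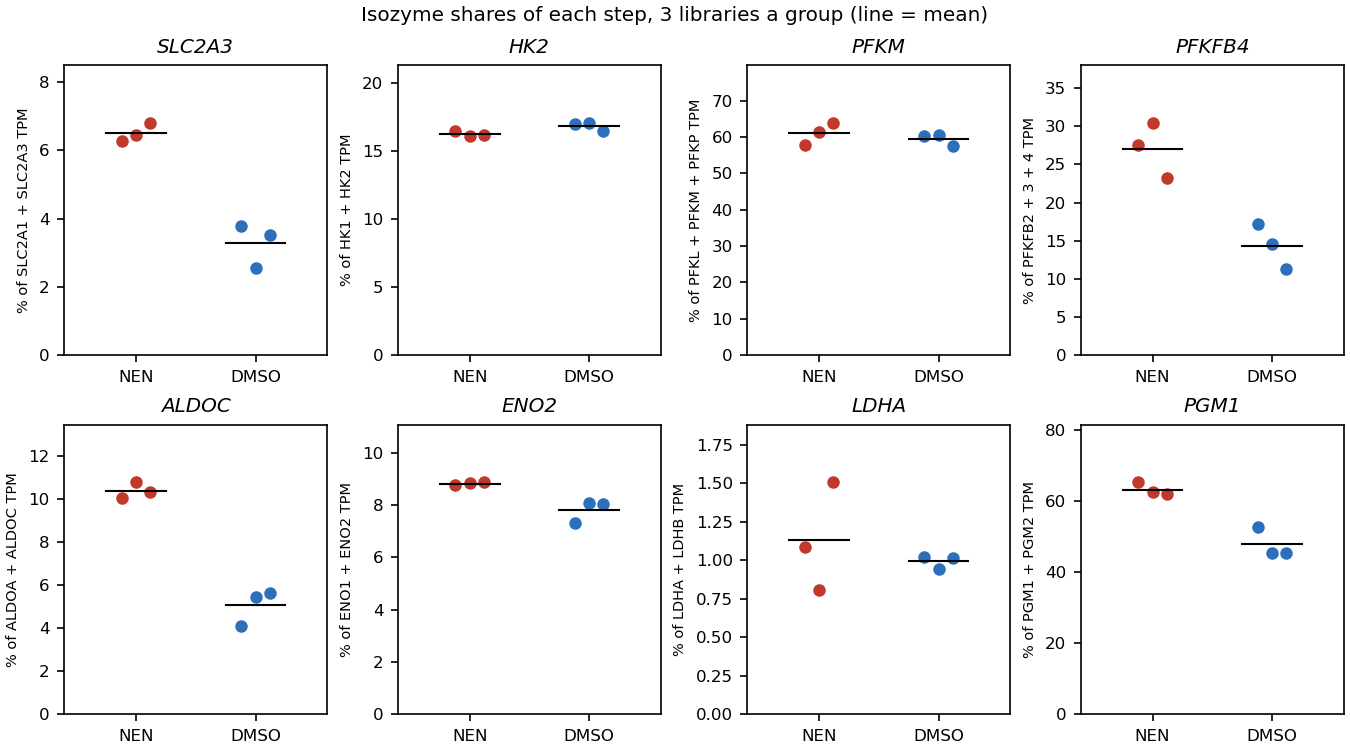
Share of 1 gene in the summed TPM of the genes set beside it, in percent, in 8 panels. Each point is a library, NEN at the left and DMSO at the right of each panel, and the line is the mean of 3. The genes of a panel share a step, except that PGM2, set beside PGM1, encodes a phosphopentomutase. The groups are separate for SLC2A3, PFKFB4, ALDOC, ENO2 and PGM1 and overlap for HK2, PFKM and LDHA.

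From the triose phosphates to pyruvate, where ATP is made, 1 of 6 genes rose and 1 fell. GAPDH, the NADH-forming dehydrogenase with the values given above, rose by 0.17 ± 0.05 (adjusted p = 0.0374). That call was lost in 9 of 15 alternatives, among them all but 1 of the 6 that leave out a library (DMSO replicate 1). The fold change was 0.15 to 0.21 on leaving out a library and 0.01 with quantile normalization (adjusted p = 0.935 in limma). Quantile normalization gives equal ranks equal values, so it would remove a change that left the rank of GAPDH as it was. Whether that rank stayed the same was not tested. PGAM1, a phosphoglycerate mutase, had 369.6, 411.2 and 374.7 TPM in NEN libraries and 497.2, 522.0 and 548.7 TPM in DMSO libraries. It fell by 0.44 ± 0.06 (adjusted p = 0.00290), the smallest adjusted p of the 3 falls. Names listed in the files other than PGAM1 hold 31.6% of the 31-base words of its longest transcript, among them PGAM4 at a mean of 0.015 TPM. For GAPDH and TPI1 the shares are 33.2% and 28.3%. With GENCODE names that the files do not use, the share is 50.3% for PGAM1 and 49.5% for GAPDH. AC012085.1, such a name, alone holds 39.1% of the PGAM1 words, so the PGAM1 level is less certain. PGK1, an ATP-forming kinase, had 248.2 ± 0.2 TPM in NEN libraries and 237.8 ± 10.7 TPM in DMSO libraries (0.06 ± 0.05, adjusted p = 0.398). ENO1, the ubiquitous enolase, had 1906 ± 56 TPM in NEN libraries and 1919 ± 46 TPM in DMSO libraries (-0.01 ± 0.05, adjusted p = 0.896). ENO2, the neuronal enolase, had 186.4, 187.5 and 179.3 TPM in NEN libraries, all above the 153.1, 164.2 and 170.7 TPM of the DMSO libraries, but did not pass (0.18 ± 0.06, adjusted p = 0.0529). PKM, pyruvate kinase, whose M1 and M2 splice forms are not told apart in gene-level values, had 1341 ± 12 TPM in NEN libraries and 1437 ± 48 TPM in DMSO libraries (-0.10 ± 0.05, adjusted p = 0.154; SD, n = 3 each for all means here).

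Of the lactate genes, 1 of 4 fell and 0 rose in limma. At an unadjusted limma p below 0.05, 2 of the 4 were lower and 0 higher, against 22.6% and 19.0% of all genes tested. SLC16A1, which encodes the transporter MCT1, had 60.1, 68.3 and 52.4 TPM in NEN libraries and 76.2, 80.0 and 79.9 TPM in DMSO libraries (-0.39 ± 0.10, adjusted p = 0.0231). The call was lost without NEN replicate 1 (-0.39), NEN replicate 3 (-0.29), DMSO replicate 2 (-0.38) or DMSO replicate 3 (-0.38), and with quantile normalization (-0.31) or length and GC correction (-0.28). SLC16A3, which encodes the lactate exporter MCT4, was near the filter, with 1.36, 0.93 and 1.20 TPM in NEN libraries and 0.87, 1.30 and 1.05 TPM in DMSO libraries (0.06 ± 0.23, adjusted p = 0.868). LDHB, the heart-type subunit, had 607.1, 597.9 and 578.1 TPM in NEN libraries and 627.8, 705.8 and 684.7 TPM in DMSO libraries. The groups did not overlap, but LDHB did not pass (-0.18 ± 0.06, adjusted p = 0.0570). LDHA, the subunit most linked to lactate production in tumours, was listed at only 6.66, 4.89 and 8.84 TPM in NEN libraries and 6.49, 6.71 and 7.04 TPM in DMSO libraries, and the groups overlapped (-0.02 ± 0.19, adjusted p = 0.945). LDHA was thus listed at about 1% of the TPM of both subunits, at 1.09%, 0.81% and 1.51% in NEN libraries and 1.02%, 0.94% and 1.02% in DMSO libraries. The 6 listed LDHA pseudogenes summed to no more than 0.52 TPM in any library. Names listed in the files other than LDHA hold 19.9% of the 31-base words of its longest transcript. Names in GENCODE that the files do not use hold most of the words of 2 abundant isozymes, with 60.01% of LDHB in AC010197.2 and 88.25% of ALDOA in AC093512.2. How transcripts were joined to gene names is not given in the sources used here, so the LDHA share is uncertain, as is the ALDOC share above, and the LDHA level, and any fold change of it, are uncertain.

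BPGM, which makes the 2,3-bisphosphoglycerate of red cells in a side branch, had 13.9, 11.2 and 11.5 TPM in NEN libraries and 15.9, 18.2 and 16.7 TPM in DMSO libraries. It fell by 0.45 ± 0.12 (adjusted p = 0.0250), a call lost without NEN replicate 2 (-0.39), NEN replicate 3 (-0.41), DMSO replicate 2 (-0.40) or DMSO replicate 3 (-0.46).

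In the pentose phosphate pathway, 3 of 6 genes rose and 0 fell in limma, and 1, RPE, was lower at an unadjusted p below 0.05. PGLS, the lactonase of the oxidative branch, had 82.4, 81.6 and 79.3 TPM in NEN libraries and 45.7, 51.1 and 49.0 TPM in DMSO libraries. It rose by 0.73 ± 0.07 and had the smallest adjusted p of the 35 genes (0.000606). PGD, which forms NADPH in the step after it, had 197.6, 197.9 and 199.1 TPM in NEN libraries and 178.7, 164.7 and 176.6 TPM in DMSO libraries (0.19 ± 0.05, adjusted p = 0.0297). Leaving out any 1 library except DMSO replicate 1 ended the PGD call, with fold changes of 0.16 to 0.21. TKT, the transketolase of the non-oxidative branch, had 451.9, 418.9 and 423.0 TPM in NEN libraries and 341.5, 316.4 and 311.9 TPM in DMSO libraries, which lie apart (0.42 ± 0.06, adjusted p = 0.00264).

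TALDO1, the transaldolase that works with TKT, had 105.0 ± 2.1 TPM in NEN libraries and 110.4 ± 6.0 TPM in DMSO libraries (-0.07 ± 0.06, adjusted p = 0.410). RPIA, the ribose phosphate isomerase, had 18.0 ± 2.5 TPM in NEN libraries and 18.5 ± 0.3 TPM in DMSO libraries (-0.05 ± 0.11, adjusted p = 0.770). RPE, the epimerase, had 60.9 ± 3.1 TPM in NEN libraries and 72.0 ± 8.0 TPM in DMSO libraries (SD, n = 3 each; -0.23 ± 0.09, adjusted p = 0.0984). Other listed names hold 46.3% of the 31-base words of RPE, among them KANSL1L with 25.7%, a gene listed at a mean of 7.66 TPM, so its level is less certain.

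PGM1, the phosphoglucomutase that links glucose 6-phosphate with glycogen and nucleotide sugars, had 37.5, 36.2 and 37.5 TPM in NEN libraries and 25.7, 24.9 and 22.5 TPM in DMSO libraries. It rose by 0.59 ± 0.08 (adjusted p = 0.00238). PGM2, a phosphopentomutase of the same family, had 20.1, 21.8 and 23.0 TPM in NEN libraries, all below the 23.2, 30.0 and 27.2 TPM of the DMSO libraries, and did not pass (-0.29 ± 0.11, adjusted p = 0.0905). PGM1 held 65.2%, 62.3% and 61.9% of the TPM of the pair in NEN libraries and 52.5%, 45.4% and 45.3% in DMSO libraries. Neither glycerol 3-phosphate gene passed in limma, and 0 had an unadjusted p below 0.05. GPD2, the mitochondrial enzyme of the glycerol phosphate shuttle, had 7.74, 12.1 and 7.16 TPM in NEN libraries and 9.81, 18.0 and 11.4 TPM in DMSO libraries (-0.48 ± 0.26, adjusted p = 0.196; -0.25 without DMSO replicate 2). GPD1L, a cytosolic relative of GPD1, had 10.2, 6.995 and 7.65 TPM in NEN libraries and 7.16, 6.39 and 6.65 TPM in DMSO libraries (0.25 ± 0.15, adjusted p = 0.260; 0.11 without NEN replicate 1).

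SLC2A3, HK1, ALDOC, PGLS, TKT, PGM1 and PGAM1, 7 of the 15 called genes, passed under each of the 15 alternatives run. The other 8, HK2, the 3 phosphofructokinase genes, GAPDH, PGD, SLC16A1 and BPGM, lost the call in at least 1 of them.

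**Figure D4:**
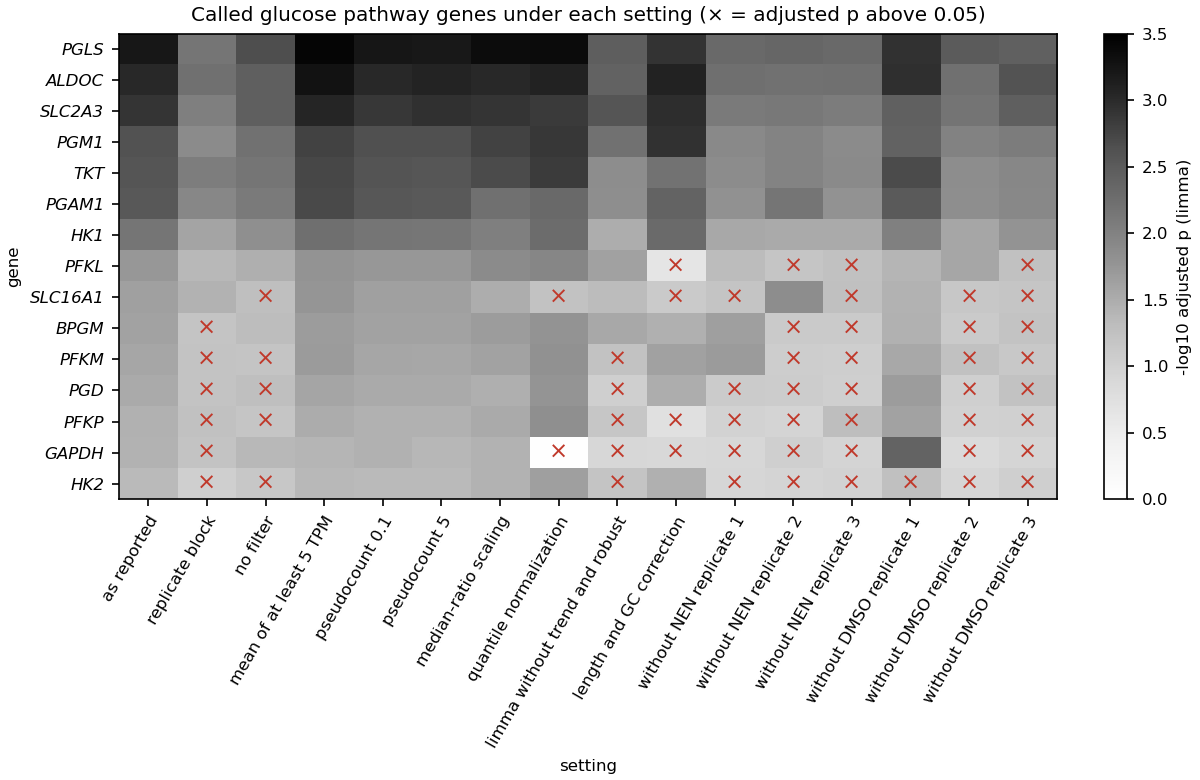
Adjusted p of the 15 called genes (rows) as reported and under each of the 15 alternatives (columns), as -log10 in grey, darker for a smaller p. A red cross marks an adjusted p above 0.05; the upper 7 genes have none.

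The stretch from 250 bases before to 50 bases after the start was taken from RefSeq (build GRCh38.p14) for 32 of the 35 genes. SLC2A3, PFKFB2 and SLC16A1 had no entry. Only the first entry listed for a gene was used, so any other start of that gene was not searched. Which start the measured transcripts used is not known. The promoters shown are those of the 3 largest rises with an entry, of PGAM1, which fell, and of LDHA, since these are the genes the results above turn on. Capitals mark ACGTG or GCGTG, the core bound by hypoxia-inducible factors (HIF), on either strand. In CACGTG, the E-box of MYC-family factors, ACGTG occurs on both strands and is counted on each.
ALDOC, chr17:28576846-28577145, minus strand: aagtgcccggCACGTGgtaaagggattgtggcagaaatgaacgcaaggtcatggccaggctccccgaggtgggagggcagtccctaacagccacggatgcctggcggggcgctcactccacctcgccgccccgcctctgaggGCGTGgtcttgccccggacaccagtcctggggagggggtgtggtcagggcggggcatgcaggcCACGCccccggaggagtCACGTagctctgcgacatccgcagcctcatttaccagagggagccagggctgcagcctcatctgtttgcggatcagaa
PGLS, chr19:17511399-17511698, plus strand: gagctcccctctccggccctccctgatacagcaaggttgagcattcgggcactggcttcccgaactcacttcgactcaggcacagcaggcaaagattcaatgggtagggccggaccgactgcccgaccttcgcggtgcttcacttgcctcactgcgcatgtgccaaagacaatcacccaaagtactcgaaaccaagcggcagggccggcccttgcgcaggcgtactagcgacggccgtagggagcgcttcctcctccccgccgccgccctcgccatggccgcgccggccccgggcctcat
PGM1, chr1:63593161-63593460, plus strand: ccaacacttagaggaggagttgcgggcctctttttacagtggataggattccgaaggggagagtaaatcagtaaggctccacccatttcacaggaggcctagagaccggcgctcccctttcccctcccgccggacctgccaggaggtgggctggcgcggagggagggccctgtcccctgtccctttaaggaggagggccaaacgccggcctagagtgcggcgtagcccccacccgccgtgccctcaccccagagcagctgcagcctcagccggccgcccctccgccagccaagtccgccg
PGAM1, chr10:97427568-97427867, plus strand: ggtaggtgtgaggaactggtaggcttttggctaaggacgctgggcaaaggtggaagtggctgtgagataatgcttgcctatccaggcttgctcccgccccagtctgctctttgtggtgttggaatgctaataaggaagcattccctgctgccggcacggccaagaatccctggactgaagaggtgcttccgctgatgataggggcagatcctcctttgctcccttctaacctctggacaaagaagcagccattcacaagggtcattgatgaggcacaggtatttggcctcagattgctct
LDHA, chr11:18394313-18394612, plus strand: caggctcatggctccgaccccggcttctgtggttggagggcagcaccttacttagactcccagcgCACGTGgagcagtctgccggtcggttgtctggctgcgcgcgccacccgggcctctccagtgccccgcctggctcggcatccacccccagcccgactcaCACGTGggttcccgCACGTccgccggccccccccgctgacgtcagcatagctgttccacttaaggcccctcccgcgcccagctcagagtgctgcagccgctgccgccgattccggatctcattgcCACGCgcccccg

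The ALDOC promoter held 5 HIF core matches and LDHA held 6, while PGLS, PGM1 and PGAM1 held none. Among genes that rose, 5 of 11 promoters had at least 1 match, against 14 of 19 among genes that did not pass. Among genes that fell, 1 of 2 promoters had a match, that of BPGM. Of all 35116 promoters in the table, 48.4% had at least 1 match. CACGTG was found in 2 of the 11 promoters of genes that rose, 2 of the 19 of genes that did not pass and 0 of the 2 of genes that fell. Of all promoters, 7.26% held it. TGATGNAAT, the element bound by ATF4 with C/EBP factors, was found in 1 of the 11, that of HK1, and in 0.991% of all promoters. A match is a run of letters, not a bound site.

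Of a list of 53 other genes of these pathways, all 53 were found and 27 passed the filter. Of these 27, 3 rose (11.1%) and 5 fell (18.5%) in limma, against 13.5% and 16.5% over all genes tested. The median fold change of the 27 was -0.09. PGAM2, the muscle phosphoglycerate mutase, had 124.6, 109.1 and 119.5 TPM in NEN libraries and 61.7, 67.3 and 64.4 TPM in DMSO libraries (0.86 ± 0.07, adjusted p = 0.000440). BSG, which encodes basigin, the chaperone that brings MCT1 to the cell surface, had 906.4, 876.5 and 865.7 TPM in NEN libraries and 719.4, 690.5 and 701.3 TPM in DMSO libraries (0.33 ± 0.05, adjusted p = 0.00276), but not after correction for length and GC content. H6PD, an NADPH-forming enzyme of the endoplasmic reticulum, rose by 0.71 ± 0.14 (adjusted p = 0.00986). HK3, a further hexokinase, had 0.97, 2.12 and 1.20 TPM in NEN libraries and 5.21, 5.67 and 5.05 TPM in DMSO libraries (-1.40 ± 0.21, adjusted p = 0.00343). PGP, which clears side products of glycolysis, fell by 0.53 ± 0.08 (adjusted p = 0.00381), and SLC2A6, a lysosomal sugar transporter, by 0.62 ± 0.11 (adjusted p = 0.00692).

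Of 16 glycogen genes, 13 passed the filter, 2 fell and 0 rose in limma, with a median fold change of 0.17, and 4 were higher and 3 lower at an unadjusted p below 0.05. Of the 13, 0% rose and 15.4% fell in limma, against 13.5% and 16.5% over all genes tested. At the unadjusted threshold 30.8% of the 13 were higher and 23.1% lower, against 19.0% and 22.6% over all genes tested. PHKA2, the liver alpha subunit of phosphorylase kinase, which activates glycogen breakdown, had 49.3, 58.6 and 49.9 TPM in NEN libraries and 110.1, 126.2 and 136.4 TPM in DMSO libraries (-1.22 ± 0.10, adjusted p = 0.000460). PHKG2, its liver catalytic subunit, fell by 0.41 ± 0.10 (adjusted p = 0.0201), a call lost without NEN replicate 2, NEN replicate 3 or DMSO replicate 2. Glycogen genes called as higher numbered 4 with median-ratio scaling or quantile normalization, and GYG1, GBE1, PYGB and GYS1 had fold changes of 0.21 to 0.31 as reported.

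Among transcription factors and regulators that act on these genes, HIF1A mRNA fell by 0.43 ± 0.07 (adjusted p = 0.00483) and MYCN rose by 0.33 ± 0.08 (adjusted p = 0.0169), a call lost without NEN replicate 1 (0.29) and in limma without trend and robust settings (adjusted p = 0.0503). EPAS1 had 28.3 ± 2.0 TPM in NEN libraries and 28.3 ± 1.4 TPM in DMSO libraries (SD, n = 3 each). TXNIP, which restrains glucose uptake, had -0.22 ± 0.06 (adjusted p = 0.0333), a call that held in 4 of 15 alternatives.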

How the data were processed

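The 6 libraries, 3 with NEN and 3 with DMSO, were grouped by their labels. Per the labels' protocols, RNA was extracted with Trizol; polyA capture and rRNA removal are both named, without saying which was used. The authors deposited TPM values made with kallisto, with hg19 as the build, per the submitters' processing notes. How transcripts were summed to genes is not given. Of 35130 names, 27 look like dates; the 2 of these that repeat were left out. No read depth can be had from TPM.

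Testing used limma 3.58.1 (R 4.3.3; trend, robust, group alone) on log2(TPM + 1), for the 12574 genes whose mean reached 1 TPM. P-values are two-sided and Benjamini-Hochberg adjusted over these genes, with 0.05 as the threshold. The fit was tested on simulated data. The members and lists were chosen with earlier results of these data known. Named are all 35 members, up to 6 called genes of each other list by smallest adjusted p, and HIF1A, EPAS1, MYCN and TXNIP. GENCODE release 29 (GRCh38, not hg19) gave shared 31-base words, length and GC content, and RefSeq the promoters. The 15 alternatives were each library left out, the replicate number as a block, no filter, a minimum of 5 TPM, pseudocounts of 0.1 and 5, median-ratio and quantile scaling, limma without trend and robust settings, and a length and GC correction (11741 genes). Figures were drawn with matplotlib 3.10.9.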

Additional observations from a re-analysis of the deposited data

How the results depend on the processing

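Genes of the glucose pathway called as higher numbered 12, and between 6 and 11 on leaving out 1 library and 7 with limma without trend and robust settings; those called as lower numbered 3, and between 1 and 6 on leaving out 1 library. With the replicate number as a block they were 8 and 3, and 2978 genes were called in all. Over all genes tested, deviations of same-numbered libraries correlated at 0.01, -0.01 and -0.03, and those of differently numbered libraries at between -0.04 and 0.05. No shared deviation of same-numbered libraries was thus seen over the genes as a whole, which cannot show that the cultures were unpaired. Over all genes 1699 rose, and between 1063 and 1554 on leaving out 1 library. Other pathway genes called as higher were 3, or 5 with quantile normalization, and those called as lower 5, or between 3 and 5 on leaving out 1 library. Glycogen genes called as higher were 0, but 1 with the replicate block, 3 with a minimum of 5 TPM, 4 with median-ratio scaling, 4 with quantile normalization, 3 with length and GC correction and between 0 and 2 on leaving out 1 library; those called as lower were 2, or between 1 and 2. The ENO2 share of enolase TPM was higher by 1.01 percentage points, and by 1.938 with quantile normalization. Of the 35 genes, 5 that were not called changed sign in at least 1 alternative; sign changes among uncalled genes of the other lists were not counted. After length and GC correction GPI was at -0.040, LDHA at 0.066, SLC16A3 at -0.197 and RPIA at 0.008, and ENO1 was at 0.015 with median-ratio scaling. On leaving out 1 library, GPI ranged from -0.017 to 0.137, ENO1 from -0.030 to 0.015, LDHA from -0.206 to 0.165, SLC16A3 from -0.011 to 0.142 and RPIA from -0.149 to 0.043. Genes of the 35 that passed only in an alternative were SLC2A1, TPI1 and PKM with quantile normalization, ENO2 in 3 alternatives, LDHB, RPE and PGM2 without DMSO replicate 1, PFKFB3 with length and GC correction, and, with the replicate block, PFKFB4 (0.63, adjusted p = 0.0461 in limma) and GPD2 (-0.48, adjusted p = 0.0463). A minimum of 5 TPM left PFKFB2, PFKFB4 and SLC16A3 untested. The causes were not tested. The depth is unknown, and 3 libraries a group limit what could be called.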

Other observations

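The phosphoglycerate mutases were set side by side after their values were seen. PGAM2 made up 25.2%, 21.0% and 24.2% of the TPM of PGAM1 and PGAM2 in NEN libraries and 11.04%, 11.4% and 10.5% in DMSO libraries. The pair summed to 494.2, 520.3 and 494.2 TPM in NEN libraries and 558.9, 589.2 and 613.2 TPM in DMSO libraries. PGAM1 shares 31.6% of its 31-base words with other listed names and 50.3% with all other GENCODE names, so the PGAM2 share is uncertain. The 12 listed PGAM1 pseudogenes summed to at most 0.38 TPM in a library.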
